A study of Mus musculus with 3 samples.

Results

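The autophagy genes described here are 40 listed genes of the mouse autophagy pathway, found by their symbols among the 22457 genes of the count tables. All 40 were present. The list was drawn up by name and role, with earlier results of these data known. Polyadenylated RNA of primary mouse regulatory T cells (Treg) was sequenced; these CD4 lymphocytes hold other immune cells in check and need the transcription factor Foxp3. The labels give male sex, adult stage and an age of 4 months, and name no strain, treatment, sorting gate or number of animals. The 3 libraries, called library 1, 2 and 3 after their technical replicate numbers, were all made from biological replicate 1, from RNA sheared on a Covaris instrument to a size range of 100 to 300. There is 1 group and no contrast between conditions, so levels are described. If the labels hold, every SD and p-value here measures technical spread within 1 biological sample and not the spread between animals.

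Autophagy encloses cytoplasm, organelles or protein aggregates in a double membrane, the autophagosome, and delivers it to the lysosome for breakdown. A kinase complex around ULK1 starts the process, a lipid kinase complex around PIK3C3 marks the membrane, and a ubiquitin-like conjugation system attaches proteins of the Atg8 family (LC3 and GABARAP) to the growing membrane, where cargo receptors bind them. In mice, loss of Atg5 or Atg7 in Foxp3-expressing cells is known to impair Treg cell survival and function.

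The Atg8 family holds the gene with the highest length-scaled level of the 40, and its sequences also bear on how well the counts can be assigned. The last 60 coding bases of the 5 members are shown because ATG4 proteases cut each protein after a glycine near its end, and that glycine is the residue joined to the membrane lipid. They are written 5′ to 3′ without the stop codon, from GENCODE M21 transcripts on GRCm38, with the glycine codon in capitals, and all lie on the + strand.
Map1lc3a, chr2:155277575-155277634: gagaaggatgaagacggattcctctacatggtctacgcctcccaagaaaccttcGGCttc
Map1lc3b, chr8:121596708-121596767: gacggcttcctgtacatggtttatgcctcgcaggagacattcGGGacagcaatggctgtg
Gabarap, chr11:69994462-69994521: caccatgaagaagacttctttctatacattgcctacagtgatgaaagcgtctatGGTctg
Gabarapl1, chr6:129541105-129541164: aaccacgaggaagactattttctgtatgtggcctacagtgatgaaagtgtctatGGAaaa
Gabarapl2, chr8:111952343-111952402: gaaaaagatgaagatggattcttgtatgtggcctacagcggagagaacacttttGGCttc
The glycine is codon 120 in Map1lc3a and Map1lc3b and codon 116 in the 3 GABARAP members. Map1lc3b keeps 5 codons after it and the others keep 1. Over whole coding sequences Map1lc3a and Map1lc3b were 76.0% identical, Gabarap and Gabarapl1 74.6%, Gabarap and Gabarapl2 61.5%, and Gabarapl1 and Gabarapl2 63.5%, while pairs across the LC3 and GABARAP branches lay between 51.0% and 59.5%.

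The family members differ in how many of their coding 31-mers (stretches of 31 bases) also occur, on either strand, in transcripts of other genes. None of the 333 in Map1lc3a and none of the 321 in Gabarap were shared. In Gabarapl1 19.3% were shared, all with 1 antisense gene, 1700101I11Rik. By contrast 98.1% of those in Gabarapl2 and all 345 in the transcript of Map1lc3b shown were shared. For Gabarapl2, 6 other genes held such copies, and Gm3724 alone held 80.1% of its 31-mers. The 6 unshared 31-mers of Gabarapl2 come from 2 stretches, which show how little of its coding sequence is its own. They are printed with the bases common to all unshared 31-mers of the stretch in capitals, on the + strand of GRCm38.
Gabarapl2, chr8:111940819-111940850: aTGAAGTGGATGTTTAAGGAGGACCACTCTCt
Gabarapl2, chr8:111942540-111942573: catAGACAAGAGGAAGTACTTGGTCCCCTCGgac
How the authors treated reads with several matches is not given in the sources used here, so the counts of Gabarapl2 and Map1lc3b are uncertain in both directions.

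Library totals were 3316275, 3079004 and 2782259 counts, and Pearson correlations of log2(CPM + 1) over detected genes, where CPM is counts scaled to a library total of 1e+06, were 0.982 to 0.985 between libraries. The Treg label held in every library: all 6 Treg markers were detected and Foxp3 had 448, 447 and 407 counts. Markers of other cells moved between libraries. The 9 B cell markers, 8 of them detected, summed to 150.5, 440.4 and 384 CPM in libraries 1, 2 and 3, with Pax5 at 0, 1 and 1 counts. By edgeR's quasi-likelihood test H2-Ab1, a class II gene of that list, was lower in library 1 than in the other 2 with an adjusted p of 9.85e-10. The plasma cell markers summed to 5.73, 26.6 and 71.9 CPM. The 8 monocyte and macrophage markers, 3 of them detected, summed to 21.7, 83.1 and 38.1 CPM. Whether the 3 libraries hold the same cells cannot be told from the counts, so the spread between them may include more than technical error. In bulk RNA, fewer cells of a type and less RNA per cell cannot be told apart.

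Nearly the whole pathway was expressed. Of the 40 genes, 39 were detected at 1 CPM or more in every library (97.5%), against 47.3% of all genes in the tables, and only Wipi1 was not. Together the 40 genes took 0.366%, 0.373% and 0.354% of the counts of libraries 1, 2 and 3. Their median level was 38.3 CPM, against 45.6 CPM for all detected genes. Scaled by coding length it was 29.0 ± 2.32 CPM per coding kb (SD over 3 libraries), against 30.7 CPM per coding kb for all 10542 detected genes with a coding length. By library, the median of the 40 genes was 28.5, 31.8 and 27.4 CPM per coding kb. Levels of different genes are compared only on the scale of CPM per coding kb. The value per kb of all exon sequence, which includes untranslated parts, is given where it changes an order stated here.

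**Figure D1:**
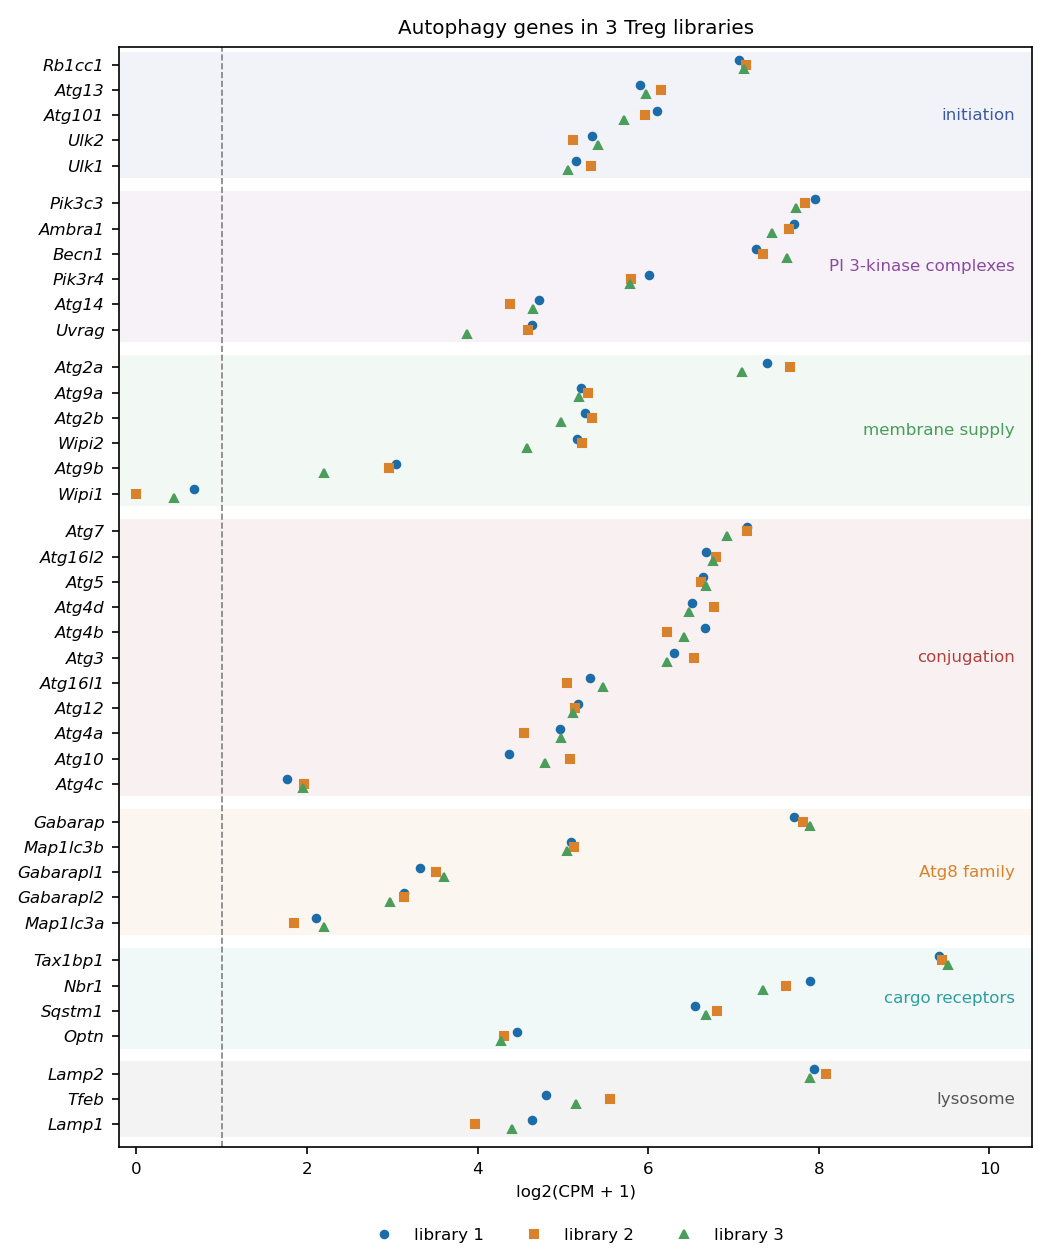
Levels of the 40 autophagy genes in each library, as log2(CPM + 1), grouped by role and ordered by mean level within a role; circles, squares and triangles are libraries 1, 2 and 3, and the dashed line marks 1 CPM. Tax1bp1, at 678 to 733 CPM, lies farthest right, and Wipi1, with 2, 0 and 1 counts, is the 1 gene left of the line.

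The 5 genes of the initiation complex were all detected, at 35.4 to 137 CPM. Atg101, which stabilises ATG13 in the complex, had 67.5, 61.4 and 51.8 CPM and the highest length-scaled level of the 5, 92.0 ± 12.1 CPM per coding kb (SD, n = 3). Atg13, the regulatory subunit that links the kinase to the complex, had 59.1, 70.2 and 61.8 CPM, or 41.1 ± 3.72 CPM per coding kb. Rb1cc1, which encodes the scaffold FIP200, had 133, 141 and 138 CPM, or 28.8 ± 0.825 CPM per coding kb. The scaffold gene shares 28.3% of its coding 31-mers with 1 other gene, Gm13961. The kinases themselves were the lowest of the complex: Ulk1 had 34.7, 39.3 and 32.3 CPM, or 11.2 ± 1.12 CPM per coding kb. Ulk2, its close relative, had 39.5, 33.8 and 41.7 CPM, or 12.3 ± 1.31 CPM per coding kb. Which kinase was higher changed between libraries, with Ulk1 above Ulk2 in library 2 only. The ratio of their summed counts per coding base was 0.911, with an exact 95% interval of 0.781 to 1.06 that includes equality. Intervals here and throughout allow for counting error alone and treat reads as independent. They may be too narrow, because several reads can stem from the same molecule.

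In the lipid kinase complexes Becn1, Pik3c3 and Ambra1 were above the other 3 genes on both length scales, but their own order turned with the length: per exon kb Pik3c3 had 51.1 CPM, Ambra1 31.7 and Becn1 24.1. Per exon kb Pik3r4 had 5.95 CPM and Atg14 5.34, the reverse of their order per coding kb. Becn1, the Beclin 1 subunit common to both complexes, had 153, 162 and 197 CPM, or 115 ± 15.7 CPM per coding kb. Pik3c3, the catalytic subunit VPS34, had 246, 227 and 211 CPM, or 83.2 ± 6.46 CPM per coding kb. Pik3r4, the VPS15 subunit that binds it, had 63.3, 54.9 and 54.3 CPM, or 13.9 ± 1.23 CPM per coding kb. Atg14, which directs the complex to autophagosome formation, had 25.3, 19.8 and 24.1 CPM, or 14.2 ± 1.78 CPM per coding kb. Uvrag, the subunit found in its place in the complex that acts on endosomes, had 23.8, 23.1 and 13.7 CPM, or 9.35 ± 2.62 CPM per coding kb. Atg14 was above Uvrag in every library, by 0.63 ± 0.53 on the log2 scale of counts per coding base, and the summed ratio was 1.49 with an exact 95% interval of 1.22 to 1.83. The SD shows how uneven that margin was, from 0.19 in library 2 to 1.22 in library 3. Ambra1, which ties Beclin 1 to the initiation complex and to ubiquitin ligases, had 209, 199 and 174 CPM, or 49.7 ± 4.61 CPM per coding kb.

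Of the 6 genes that bring lipid and membrane to the forming autophagosome, each family had 1 dominant member. Atg2a, which encodes a lipid transfer protein, had 167, 201 and 137 CPM, or 29.3 ± 5.64 CPM per coding kb. Its relative Atg2b had 37.4, 39.6 and 30.6 CPM, or 5.76 ± 0.759 CPM per coding kb. The Atg2a excess over Atg2b was steady, at 2.27, 2.46 and 2.28 on the log2 scale, and 5.08-fold in summed counts per coding base (exact 95% interval 4.51 to 5.74). Atg9a, the transmembrane protein of the vesicles that seed the membrane, had 36.2, 38.3 and 35.6 CPM, or 14.2 ± 0.559 CPM per coding kb. Atg9b, its relative, had 7.24, 6.82 and 3.59 CPM, or 2.13 ± 0.721 CPM per coding kb. Atg9a was 6.58-fold above Atg9b in summed counts per coding base (4.93 to 8.91). However, Atg9a shares 28.5% of its coding 31-mers with 1 other gene, Gm29253, and 31.8% of its exon sequence overlaps that gene on the same strand.

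The WIPI proteins read the lipid that PIK3C3 makes, and WIPI2 recruits the conjugation complex. Wipi2 had 35.0, 36.4 and 23.0 CPM, or 23.6 ± 5.51 CPM per coding kb. Wipi1 had 2, 0 and 1 counts, or 0.603, 0 and 0.359 CPM. In library 2, 3 counts correspond to 0.974 CPM, and the exact Poisson 95% interval of the 0 reaches 1.20 CPM. Summed over libraries, Wipi2 had 292 counts and Wipi1 had 3, a ratio of 105 per coding base with an exact 95% interval of 35.6 to 512.

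The conjugation system had 11 genes, all detected, with a median of 58.6 CPM per coding kb. Atg5, which joins with ATG12 to form part of the final ligase, was the highest of the ligase parts, with 98.6, 97.4 and 101 CPM, or 120.2 ± 2.44 CPM per coding kb. Atg12, the ubiquitin-like partner of ATG5, had 35.3, 34.4 and 33.8 CPM, or 81.6 ± 1.77 CPM per coding kb. Atg12 is the gene whose place depends most on the length used: it ranked 9 of 40 per coding kb and 30 of 40 per exon kb, where it had 4.47 CPM. Atg16l1, which places the ligase on the membrane, had 38.9, 32.2 and 43.5 CPM, or 20.4 ± 3.05 CPM per coding kb. Its relative Atg16l2, whose role in autophagy is less clear, had 101, 110.4 and 108 CPM, or 56.2 ± 2.47 CPM per coding kb. Atg16l2 was thus the more abundant in every library, 2.76-fold in summed counts per coding base (exact 95% interval 2.44 to 3.12), and the order held per exon base.

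Atg7, the activating enzyme of both conjugation reactions, had 142, 142 and 121 CPM, or 58.6 ± 5.32 CPM per coding kb. Atg3, the conjugating enzyme for the Atg8 proteins, had 78.1, 91.9 and 73.3 CPM, or 86.1 ± 10.2 CPM per coding kb. Atg10, the conjugating enzyme for ATG12, had 19.6, 32.8 and 26.6 CPM, or 41.6 ± 10.4 CPM per coding kb. All 3 enzymes were therefore above the median of the pathway, with Atg10 the most variable of them.

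The ATG4 proteases, which trim the Atg8 proteins to the glycine printed above and later release them, were led by Atg4b and Atg4d. Atg4b had 100.4, 73.4 and 84.8 CPM, or 70.2 ± 11.0 CPM per coding kb. Atg4d had 90.8, 108 and 88.1 CPM, or 62.7 ± 7.15 CPM per coding kb, with 19.3% of its exon sequence overlapping Kri1. Their order was not stable: Atg4d was above Atg4b in library 2 only, by 0.25 on the log2 scale of counts per coding base, and the mean difference of -0.16 became 0.34 per exon base. Atg4a had 30.2, 22.4 and 30.6 CPM, or 23.3 ± 3.86 CPM per coding kb, and shares 81.9% of its coding 31-mers, mainly with its pseudogene Atg4a-ps. Atg4c was near the limit of detection, with 8, 9 and 8 counts, or 1.99 ± 0.205 CPM per coding kb. Per coding base, Atg4a stood at 0.330 of Atg4b (exact 95% interval 0.286 to 0.381) and Atg4c at 0.0281 (0.0181 to 0.0418). The distance of Atg4a disappears per exon base, where the mean log2 ratio to Atg4b was -0.0028.

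Gabarap was the highest of the 40 genes on both length scales. It lies at chr11:69991143-69994951 on the + strand of GRCm38, and had 208, 224 and 237 CPM, or 542 ± 35.4 CPM per coding kb, which placed it at the 98.8 percentile of detected genes. Its relatives were far lower. Gabarapl1 had 9.05, 10.4 and 11.1 CPM, or 17.8 ± 1.85 CPM per coding kb, and 28.3% of its exon sequence overlaps the antisense gene 1700101I11Rik, with strand use in counting not given. Gabarapl2 had 7.84, 7.79 and 6.83 CPM, or 21.3 ± 1.63 CPM per coding kb, with the shared sequence described above. Gabarap exceeded Gabarapl2 in every library, by 4.50, 4.61 and 4.89 on the log2 scale of counts per coding base, and 25.2-fold in summed counts (exact 95% interval 19.8 to 32.5). Gm3724, the gene that shares most with Gabarapl2, was not found by symbol in the count tables, so it has no counts to compare. What reads lost from Gabarapl2 to its copies, or gained from them, contribute to the difference from Gabarap was not tested. The order of Gabarapl1 and Gabarapl2 turned with the length used: their mean log2 ratio was -0.27 ± 0.25 per coding base and 0.65 per exon base.

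Of the LC3 members, Map1lc3b had 33.2, 34.1 and 32.0 CPM, or 33.1 ± 1.06 CPM per coding kb. Map1lc3a had 11, 8 and 10 counts, or 3.32, 2.60 and 3.59 CPM, and 8.73 ± 1.42 CPM per coding kb. Map1lc3a stood at 0.263 of Map1lc3b per coding base (exact 95% interval 0.173 to 0.385). The coding length of Map1lc3b is the union over its transcripts, and with the 375 coding bases of the transcript shown alone its level was 88.2 ± 2.82 CPM per coding kb, and the ratio was 0.0985 (0.0649 to 0.144). On that same basis of 1 transcript each, Gabarap had 636 ± 41.6 CPM per coding kb, Gabarapl1 had 29.0 ± 3.03 and Gabarapl2 had 21.3 ± 1.63. Gabarap was thus above Map1lc3b on either basis.

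**Figure D2:**
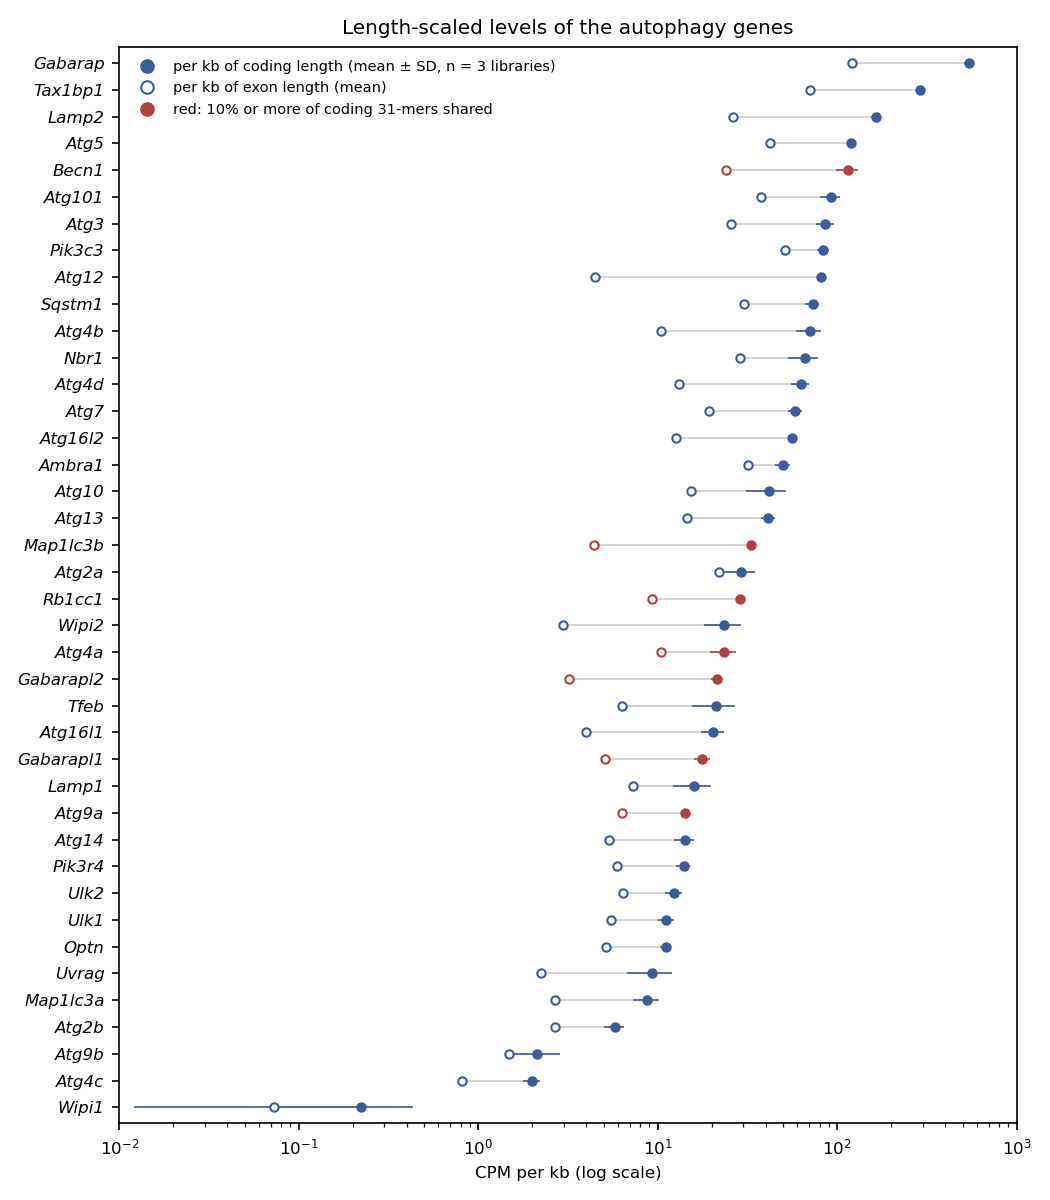
Length-scaled levels of the 40 genes on a log axis, in CPM per kb: filled points are means per coding kb with SD bars over 3 libraries, open points are means per exon kb, and red marks genes that share 10% or more of their coding 31-mers. Gabarap (542 per coding kb) and Tax1bp1 (288) lead on both scales and Wipi1 (0.223) is lowest on both, while Atg12 has the widest gap between its 2 points.

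All 4 cargo receptors were detected, and on the length scale they spanned from rank 2 to rank 34 of the 40. Tax1bp1, a receptor for ubiquitinated cargo, had 678, 697 and 733 CPM, the highest unscaled level of the 40, or 288 ± 11.6 CPM per coding kb. Sqstm1, which encodes the receptor p62, had 92.9, 111 and 101 CPM, or 73.0 ± 6.64 CPM per coding kb, with 17.3% of its exon sequence overlapping Mrnip. Nbr1, a receptor related to p62, had 237, 195 and 162 CPM, or 65.9 ± 12.5 CPM per coding kb. Optn, which encodes optineurin, had 21.1, 18.8 and 18.3 CPM, or 11.1 ± 0.844 CPM per coding kb. The mean of Sqstm1 and that of Nbr1 lay closer together than the SD of Nbr1, so these 2 were not separated, while Tax1bp1 and Optn stood clear of both.

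At the lysosome, Lamp2 exceeded Lamp1. These genes encode the main glycoproteins of the lysosomal membrane, and LAMP2 also serves the fusion of autophagosomes and chaperone-mediated autophagy. Lamp2, at chrX:38401357-38456454 on the - strand, had 245, 269.6 and 238 CPM, or 165 ± 11.0 CPM per coding kb. Lamp1 had 23.8, 14.6 and 20.1 CPM, or 16.0 ± 3.80 CPM per coding kb, and was lowest in library 2. Lamp2 was 10.2-fold above Lamp1 in summed counts per coding base (exact 95% interval 8.80 to 12.0), and the mean log2 ratio of Lamp1 to Lamp2 was -3.39 ± 0.44 per coding base and -1.87 per exon base. Tfeb, the transcription factor that switches on lysosomal and autophagy genes, had 26.8, 45.8 and 34.5 CPM, or 21.2 ± 5.66 CPM per coding kb.

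**Figure D3:**
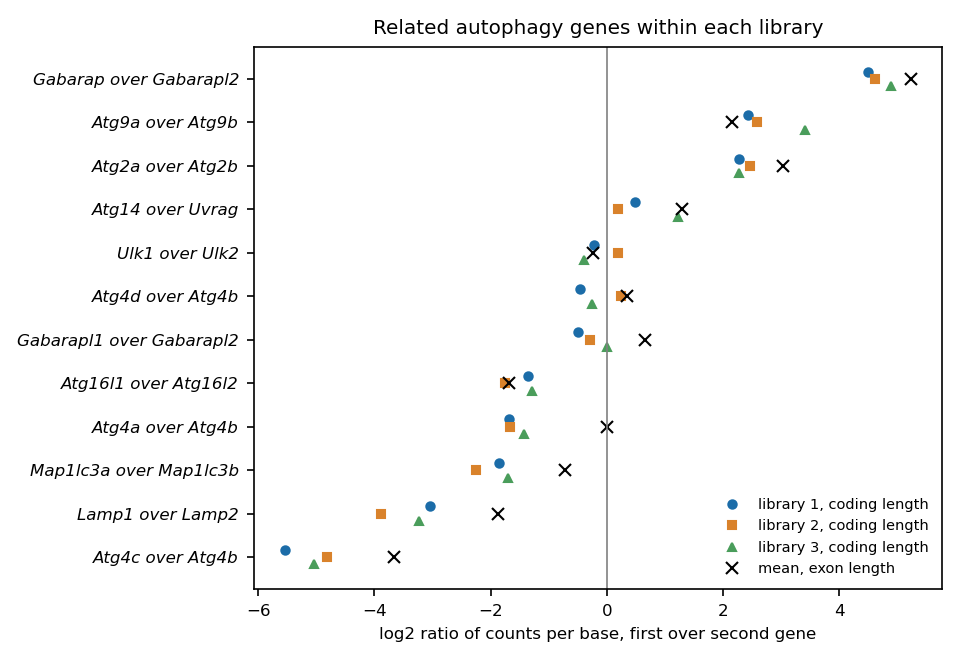
Log2 ratio of counts per base between related genes within each library, by coding length (circles, squares and triangles for libraries 1, 2 and 3) and by exon length (crosses, mean); Wipi1 over Wipi2 is left out because library 2 has no Wipi1 count. Ulk1 over Ulk2 and Atg4d over Atg4b have libraries on both sides of 0, and the crosses of Atg4d over Atg4b and Gabarapl1 over Gabarapl2 lie on the other side of 0 from the coding-length means.

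Of the 13 pairs of related genes compared, 11 had the same direction in all 3 libraries by coding length, all but Ulk1 with Ulk2 and Atg4d with Atg4b.

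TFEB and its relatives bind DNA that contains the letters CACGTG, so promoters were searched for them, taking RefSeq sequences of GRCm38.p6 from 250 bases before to 50 after each listed transcript start. These were found for 34 of the 40 genes, with 40 windows in all, since some genes have several starts. The letters CACGTG occurred in a window of 5 of the 34 genes (14.7%), Atg14, Atg3, Atg5, Atg7 and Lamp1, against 8.09% of the 27025 genes in the table. By windows, 5 of 40 held them, against 7.15% of 32851. The matches of Atg7 and Atg14 lie inside these genes as annotated in GENCODE M21, each before an internal start. The longer TCACGTGA occurred in 1, Atg3 (2.94%), against 1.12% of all genes. Both motifs read the same on either strand, and the longer contains the shorter. The 2 windows that hold the most matches and the longer match are shown with CACGTG in capitals, both on the + strand.
Lamp1, chr8:13159097-13159154: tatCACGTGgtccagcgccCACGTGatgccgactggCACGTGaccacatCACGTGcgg
Atg3, chr16:45158746-45158775: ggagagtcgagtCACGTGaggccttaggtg
The Lamp1 stretch holds 4 matches between 61 and 15 bases before the start. These are matches of letters, and binding was not measured here.

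Differences between libraries were tested gene by gene with a chi-square test of the 3 counts against the library totals, adjusted by Benjamini-Hochberg over all 10043 genes whose counts summed to at least 30. Of these, 22.7% passed at 0.05. Among the autophagy genes 37 were tested and 9 passed, or 24.3%, which is close to the share of all genes, so the pathway did not stand out. The 28 others did not pass, and Wipi1, Atg4c and Map1lc3a had too few counts to be tested. The test allows for counting error alone. By edgeR's quasi-likelihood test, which also allows for the spread between libraries, no autophagy gene passed in library 1, 2 or 3 against the other 2, where 0.114%, 0.052% and 0.541% of all genes tested passed. At an unadjusted p under 0.05 that test gave 2, 2 and 6 of the 37, where 4.46%, 4.36% and 9.32% of all genes passed. After adjustment DESeq2 gave no autophagy gene and 2 genes in all.

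The 9 genes fell into different patterns. Of the 37 tested, 4, 4 and 1 both passed and were highest in library 1, 2 and 3, against 7.61%, 7.03% and 8.04% of all genes tested. Lowest in library 1, 2 and 3 were 3, 1 and 5 of them, against 7.2%, 6.4% and 9.07% of all genes tested. Nbr1 (786, 599 and 451 counts in libraries 1, 2 and 3) had the smallest adjusted p of the 9 in the chi-square test, 3.13e-08, and its highest CPM was 1.46 times its lowest. Atg2a (553, 620 and 380 counts) followed, with a ratio of 1.47 and an adjusted p of 5.94e-07. Ambra1 had 692, 614 and 484 counts, with a ratio of 1.20 and an adjusted p of 0.0365. All 3 were lowest in library 3, as were Wipi2 (116, 112 and 64 counts, ratio 1.58, adjusted p 0.0359) and Uvrag (79, 71 and 38 counts, ratio 1.74, adjusted p 0.0471). In Uvrag, 17.6% of the exon sequence overlaps Gm45187 on the other strand. Lowest in library 1 were Becn1 (507, 498 and 548 counts, ratio 1.29, adjusted p 0.00112), Atg10 (65, 101 and 74 counts, ratio 1.67, adjusted p 0.0266) and Tfeb (89, 141 and 96 counts, ratio 1.71, adjusted p 0.00322). Library 1 is also the library lowest in B cell, plasma cell and macrophage markers, with the sums given above, and their part in these 3 differences was not tested. Becn1 shares 11.9% of its coding 31-mers with 1 other gene, Cntd1, which overlaps 43.9% of its exon sequence on the other strand. Cntd1 itself had 2, 6 and 5 counts. Atg4b (333, 226 and 236 counts, ratio 1.37, adjusted p 0.00904) was lowest in library 2.

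Read by role, the 9 differences comprised 3 of 6 tested genes of the lipid kinase complexes, 2 of 5 that supply membrane, 2 of 10 of the conjugation system, 1 of 4 cargo receptors and 1 of 3 lysosomal genes. None of the 5 initiation genes and none of the 4 tested Atg8 members passed. By comparison, 22.7% of all genes tested passed. The counts by role are of few genes, and no test of the roles against each other was made. The count of 9 depended on single libraries, with 4 without library 1, 7 without library 2 and 5 without library 3. Over all genes the count fell too, from 2277 to 1247, 1466 and 904.

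**Figure D4:**
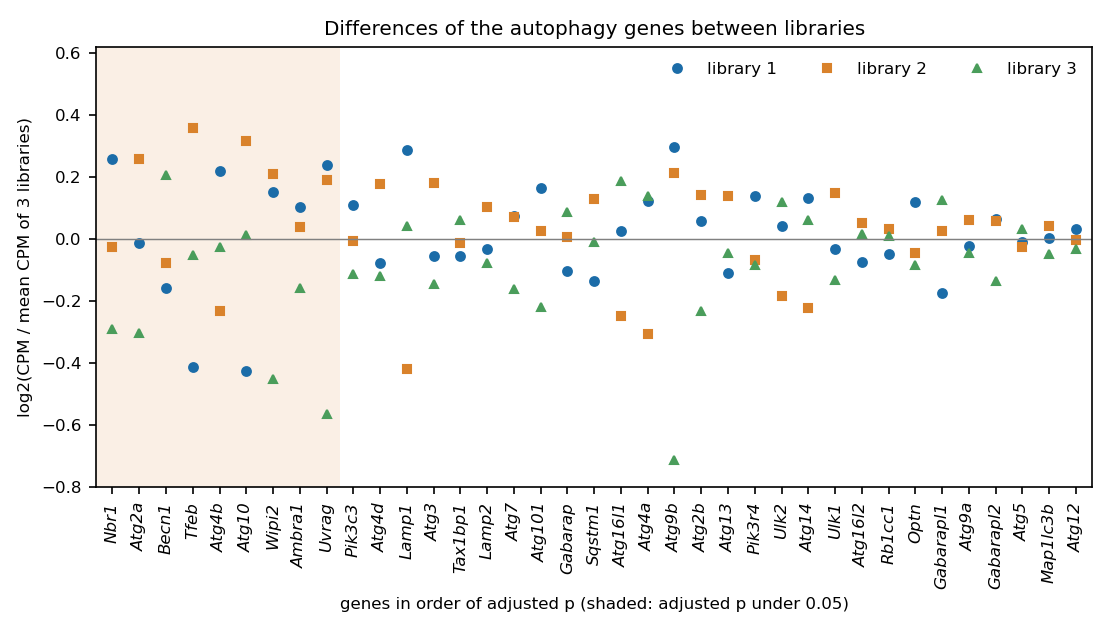
Differences of the 37 tested autophagy genes between libraries, as log2 of the CPM in each library over the mean of the 3, in order of the adjusted chi-square p; the 9 genes in the shaded part passed at 0.05. Library 3 is lowest in 5 of the 9 and library 1 in 3, and Atg9b spreads widely on few counts (24, 21 and 10).

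Gabarap was not among the 9 (adjusted p 0.153), and its counts were more even than the library totals. Its 690, 690 and 660 counts varied by 4.41% of their mean while the library totals varied by 17.5%. It held 1.65 counts per coding base. The 185 tested genes with 1.5 or more counts per coding base had a median count range of 4.41%, against 26.6% for the other tested genes. The other genes include some with as few as 30 summed counts, and counting error alone widens this range where counts are small. The 2 sets were not matched for count size, so the contrast cannot be assigned to density. Among those 185 genes 57.8% passed the chi-square test. The highest value of any coding gene was 3.06 counts per coding base. Gabarap has 412 coding and 1844 exon bases, and reads from untranslated parts may be among its counts. These values are therefore not counts per sequenced base. Tax1bp1, the next highest of the pathway at 0.878 counts per coding base, had 2247, 2147 and 2040 counts. Whether duplicate reads were removed is not given in the sources used here, and its part in the Gabarap level was not tested.

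The 70 other genes of autophagy and the lysosome, listed by role, were also mostly expressed: 63 were detected and tested, and 18 passed the same chi-square test (28.6%), against 22.7% of all genes. With library 1, 2 or 3 left out, 11, 11 and 7 passed, while over all genes 2277 fell to 1247, 1466 and 904. What is said of single genes of these lists rests on all 3 libraries. Of the 63, 7 passed and were highest in library 1, 9 in library 2 and 2 in library 3. Of all genes tested, 7.61%, 7.03% and 8.04% did so. Passing and lowest in library 1, 2 and 3 were 5, 1 and 12 of the 63, against 7.2%, 6.4% and 9.07%. In the fusion and tethering list, all 14 genes were detected and 6 differed (42.9%, against 22.7% of all genes). Vamp8, a SNARE of the fusion step, had 604, 591 and 572 counts and 638 ± 38.9 CPM per coding kb, the highest of its list, and Vps16, a subunit of the HOPS tether, had 123 ± 8.43. Vps18, another HOPS subunit, was low at 11.3 ± 2.62 CPM per coding kb and differed with a ratio of 1.59 (adjusted p 0.0323). Epg5, a tethering factor, was lowest at 4.89 ± 0.297 CPM per coding kb. Vps11 (ratio 1.46, adjusted p 9.21e-07) and the SNARE gene Snap29 (ratio 1.45, adjusted p 0.0403) also differed.

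Of the 15 regulators of the kinase complexes, 13 were detected and tested, and 3 differed (23.1%, against 22.7% of all genes). Vmp1, a lipid scramblase of the endoplasmic reticulum, had 265 ± 8.18 CPM per coding kb, and Tbk1, a kinase of cargo receptors, had 102 ± 6.96. Of the catalytic subunits of AMP-activated kinase, Prkaa1 had 317, 219 and 171 counts (ratio 1.56, adjusted p 8.59e-05) and Prkaa2 had 1, 0 and 0. The deubiquitinases differed likewise in level: Usp10 (ratio 1.31, adjusted p 0.00133) had 598, 615 and 424 counts and Usp13 had 0, 0 and 1. Rubcn, an inhibitor of the UVRAG complex, had 150, 186 and 94 counts (ratio 1.79, adjusted p 0.00026). All 3 regulators that differed were lowest in library 3, where 9.07% of all genes tested passed and were lowest.

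Of the 14 genes of selective autophagy, 12 were detected and tested, and 2 differed (16.7%, against 22.7% of all genes). The mitophagy receptors Fkbp8 and Fundc1 were highest, at 229 ± 26.2 and 154 ± 9.12 CPM per coding kb. Wdfy3, an adaptor for aggregates, had 3, 1 and 1 counts. Calcoco1 (ratio 1.40, adjusted p 0.00146) and Fkbp8 (ratio 1.23, adjusted p 0.000191) differed between libraries.

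Among the 6 listed transcription factors (Tfe3, Tfec, Mitf, Foxo1, Foxo3 and Zkscan3), 4 were detected. None of the 4 differed, where 22.7% of all genes tested did. Foxo1 had 48.9 ± 2.47 CPM per coding kb and Zkscan3, a repressor of autophagy genes, had 24.9 ± 1.70. Tfe3, a relative of Tfeb, had 128, 108 and 108 counts, or 21.2 ± 1.18 CPM per coding kb, which lay within 1 SD of the Tfeb mean. The other relatives were near or at 0, with Mitf at 0, 2 and 0 counts and Tfec at 0 in all libraries.

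Of the 21 lysosomal enzyme and membrane genes, 20 were detected and tested, and 7 differed (35%, against 22.7% of all genes). The median of the 21 was 117 CPM per coding kb. Ctsb, which encodes cathepsin B, had 586 ± 17.3 CPM per coding kb and Laptm5, a lysosomal membrane protein of blood cells, had 562 ± 43.0. Ctsl, which encodes cathepsin L, was low with 21, 23 and 14 counts, or 6.23 ± 1.21 CPM per coding kb. Cd63 had 3, 6 and 3 counts, with 72.2% of its coding 31-mers shared with other genes. Of the 20 tested, 2, 3 and 2 passed and were highest in library 1, 2 and 3. Of all genes tested, 7.61%, 7.03% and 8.04% did so. The acid glucosidase gene Gaa (166, 263 and 155 counts, ratio 1.71, adjusted p 9.14e-07) and the calcium channel gene Mcoln1 (88, 125 and 87 counts, ratio 1.53, adjusted p 0.0351) were highest in library 2. Library 2 also had the highest sum of macrophage markers, 83.1 CPM, whose part in these differences was not tested. The cholesterol transporter gene Npc1 (357, 305 and 203 counts, ratio 1.48, adjusted p 0.000586) was lowest in library 3.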

How the data were processed

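The deposited tables, 1 for each library, hold unscaled counts of reads per gene as whole numbers. Per the submitters' processing notes, reads were aligned to mouse assembly mm10 and counted with GENCODE M4. Not given in the sources used here are the aligner, the counter, its strand setting, and what was done with duplicate or multiply matching reads. Symbols, coordinates and lengths came from GENCODE M21 on GRCm38, the same assembly in a later annotation: 22195 of 22457 identifiers matched a symbol, and the 262 without one held 0.136% of counts. Coding and exon lengths are unions over transcripts. Coding 31-mers were compared with the transcripts of other genes on both strands, so overlap with an antisense gene also counts as sharing. Of the sharing or overlapping genes named, Gm3724, Gm13961, Gm29253, Atg4a-ps, Gm45187 and 1700101I11Rik were not found by symbol in the count tables.

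Levels are CPM of the library total, with means and SDs over 3 libraries. At the library totals of 3316275, 3079004 and 2782259, 3 counts correspond to 0.905, 0.974 and 1.08 CPM. The exact Poisson 95% interval of a count of 0 reaches 1.11, 1.20 and 1.33 CPM. Detection required 1 CPM in each library. Between-library differences were tested with a chi-square test (2 degrees of freedom, 30 or more summed counts, Benjamini-Hochberg over all genes tested, threshold 0.05), and each library against the other 2 with edgeR 4.0.16 (quasi-likelihood, TMM, filterByExpr) and DESeq2 1.42.0 in R 4.3.3, with Python 3.11.15, pandas 2.3.3 and scipy 1.17.1 for the rest. With 3 libraries and 1 set against 2, the residual spread in the edgeR test rests on 1 degree of freedom. Exact intervals are Clopper-Pearson at 95%. The test scripts were tested on simulated data. The 40 members, the lists of other genes and markers and the pairs were chosen with earlier results of these data known. All 40 members are named. From each other list the 2 highest and 2 lowest genes by counts per coding base, and up to 3 genes that passed the chi-square test with the largest ratio of highest to lowest CPM, are named, except an item not reported here, and Tfe3 was added after its values were seen. Alternatives changed the scaling, the minimum count, the test, the length and the libraries used.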

Additional observations from a re-analysis of the deposited data

How the results depend on the processing

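Detection of 39 genes was the same under each of the 8 alternatives tried (other thresholds, TMM and DESeq2 scaling, and each library left out). The count of members that differed between libraries was 9, 11 with TMM and 10 with DESeq2 scaling, 8 with 10 or more summed counts, 6 with no minimum, between 4 and 7 with a library left out, and 0 by edgeR's quasi-likelihood test. For the 70 other genes it was 18, and between 7 and 11 with a library left out. Among all genes it was 2277, and between 904 and 1466 with a library left out. Under edgeR no member passed with or without TMM scaling or the filter, nor by DESeq2. The median level of 29.0 CPM per coding kb lay between 27.4 and 30.4 with a library left out, but was 8.32 per exon kb (10.2 for all detected genes) and 41.1 per coding kb over the 33 members that share under 10% of their coding 31-mers; fewer genes enter there. Of 13 pairs, 11 kept 1 direction in all libraries, 9 by exon length and 9 without length scaling, and between 11 and 13 with a library left out. The log2 ratio of Atg4d to Atg4b, -0.16, was 0.34 per exon base and 0.16 unscaled. That of Gabarapl1 to Gabarapl2, -0.27, was 0.65 per exon base, 0.44 unscaled and 0.44 with the coding length of 1 transcript each, an alternative chosen after seeing the data. The lengths differ by construction in each of these. No paired analysis was possible because the libraries form 1 group. Leaving out a library from the edgeR test leaves no residual degree of freedom, so it was not run. Depth limits Wipi1, Atg4c, Map1lc3a, Gabarapl2, Gabarapl1 and Atg9b most, each with under 100 summed counts.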
